A study of Mus musculus with 10 samples.

Results

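The aminoacyl-tRNA synthetases are the enzymes that load each amino acid onto its transfer RNA. Here 36 synthetase genes, a list that does not claim to be the whole family, were followed among the 23337 gene symbols measured in each library. They were chosen by name, not by their values: 20 genes without a final 2 in the symbol encode mainly cytosolic enzymes, and 16 genes with a final 2 encode mitochondrial enzymes. All 36 were present and all 36 passed the filter on low counts. The mitochondrial enzymes are encoded in the nucleus as well, and Gars and Kars, counted here as mainly cytosolic, each supply both compartments.

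A synthetase joins an amino acid to its tRNA with ATP, and the charged tRNA then delivers that amino acid to the ribosome. Several cytosolic synthetases sit in a multisynthetase complex held together by the scaffold proteins encoded by Aimp1, Aimp2 and Eef1e1. When uncharged tRNA builds up, the kinase GCN2 (Eif2ak4) phosphorylates the translation factor eIF2α, and the transcription factor ATF4 then raises genes for amino acid synthesis, amino acid uptake and many cytosolic synthetases. The tryptophanyl enzyme encoded by Wars is the synthetase best known as interferon-inducible, mainly by interferon-γ.

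RNA was sequenced from immortalised mouse embryonic fibroblasts, connective-tissue cells grown from embryos, that were labelled as knockout (KO) or wild type (WT) for Slfn2, an interferon-induced gene of the Schlafen family. There were 2 KO-labelled libraries with interferon-β (IFN-β), 2 KO-labelled untreated libraries, 3 WT-labelled libraries with IFN-β and 3 WT-labelled untreated libraries. IFN-β was the mouse protein at 5000 IU/ml for 6 h. The labels speak of wells plated in duplicate or triplicate and do not say how many lines stand for each genotype. The p-values therefore measure the spread between wells, and a difference between genotypes cannot be told apart from a difference between cultures. Much of the spread between wells followed the replicate number, as described below, and the labels do not say what that number marks.

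Slfn2 itself had 75.0 and 171 normalised reads in KO-labelled libraries with IFN-β, against 527, 449 and 573 in WT-labelled libraries with IFN-β. Untreated, it had 46.1 and 34.9 normalised reads in KO-labelled libraries and 18.7, 17.4 and 15.5 in WT-labelled libraries. Slfn2 was thus lower in the KO-labelled libraries with IFN-β (log2 fold change −2.17 ± 0.36 SE, adjusted p = 0.0082, and 0.0565 without the KO-labelled IFN-β library numbered 1), while untreated it lay above WT in both (log2 1.18 ± 0.36, adjusted p = 0.091). With the replicate number as a block in the fit, the untreated Slfn2 difference passed (adjusted p = 0.039), and it was lost in 8 of 10 blocked fits that left out a library (up to 0.23, without the KO-labelled untreated number 1). The labels do not name the allele, and a gene-level read count does not show what protein a transcript can make, so the genotypes are called KO-labelled and WT-labelled throughout. The libraries held 13565815 to 16329729 reads. The fibroblast markers Col1a1, Col1a2 and Vim were high in every library, and Ptprc, Epcam, Myod1 and Sox10 were at 0 or within 2 normalised reads of it. Some other leukocyte, muscle and neural markers were above 0 in every library. Cd68 had 26.84 to 46.34 normalised reads, Csf1r 15.84 to 58.42 and the neural marker Tubb3 462.4 to 1284.9. The muscle marker Des was low but also above 0 in every library. Among 10 fibroblast markers, Dcn and Lum were lower in KO-labelled libraries under both treatments. Lum lost its untreated call without the KO-labelled untreated number 2, and its IFN-β call without either KO-labelled IFN-β library or the WT-labelled IFN-β number 1 or 2, but not with the block. Col1a2 and Fn1, for collagen and fibronectin chains, were higher with the block only (Col1a2 log2 0.78 untreated and 0.76 with IFN-β, adjusted p = 0.030 and 0.034, and Fn1 0.55 and 0.66, adjusted p = 0.036 and 0.018). Those blocked calls were lost in 4 to 7 of 10 fits that left out a library.

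The unit is the normalised read, a library's gene read count divided by that library's size factor. To compare genes, it was divided by the summed length of the gene's exons in kb. On that per-kb scale the mainly cytosolic genes had a median of 1016.5 in WT-labelled untreated cells and the mitochondrial genes a median of 91.2. Gars, for the glycyl enzyme, was the highest of all at 2769 ± 719 (SD, n = 3), and Nars, for the asparaginyl enzyme, followed at 2334 ± 592, which does not differ from it beyond their spread. Qars, for the glutaminyl enzyme, was the lowest of the mainly cytosolic genes at 382 ± 50. Among the mitochondrial genes, Lars2, for the leucyl enzyme, stood at 864 ± 203, next to the cytosolic Farsb (881 ± 132), and the following mitochondrial gene, Yars2, stood at 293 ± 44. Mars2, for the mitochondrial methionyl enzyme, had the lowest mean of the 36 at 33.5 ± 13.98. That does not differ beyond its spread from Ears2 (35.3 ± 4.4), Fars2 (38.0 ± 9.1) or Nars2 (39.7 ± 6.8). Lars2 was therefore the only mitochondrial gene of the 16 whose mean level per kb reached those of the mainly cytosolic genes. All 20 mainly cytosolic genes together took 0.65% to 0.87% of a library's reads, and the 16 mitochondrial genes took 0.105% to 0.153%.

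Promoter windows, 250 bases before to 50 after the gene start on GRCm38.p6 (the mm10 build), were taken from RefSeq for 26 of the 36 genes. The other genes, among them Hars, Hars2, Lars, Nars and Wars, were not searched. That a gene has no window here does not show that RefSeq lacks it. The windows were searched on both strands for a CARE-type motif, TGATGNAA (the kind of site ATF4 binds with a C/EBP partner), for an interferon-stimulated response element, GAAA, any pair of bases and GAAA again, and for a GAS-type motif, TTCNNNGAA. The CARE-type letters were found in 5 of 26 windows (Aars, Gars, Iars, Tars and Yars) and in 3.97% of all 32851 windows. The interferon response letters were found in 1 of 26 (Qars) and in 3.44% of all windows, and the GAS-type letters in 3 of 26 (Aars, Kars and Nars2) and in 8.3% of all windows. A match is a description of the letters and not a shown binding site. The 5 windows printed here are those of Farsa, Sars and Tars2, which passed the test between genotypes, and of Gars and Aars, which carry the CARE-type letters. Capitals mark the motif matches, and the first 3 windows hold none. In Aars, the first and last runs of capitals are CARE-type matches and the middle run is the GAS-type match. The windows are chr8:84856736-84857035 on the plus strand for Farsa, chr3:108445210-108445509 on the minus strand for Sars, chr3:95754928-95755227 on the minus strand for Tars2, chr6:55037751-55038050 on the plus strand for Gars and chr8:111033592-111033891 on the plus strand for Aars.
Farsa: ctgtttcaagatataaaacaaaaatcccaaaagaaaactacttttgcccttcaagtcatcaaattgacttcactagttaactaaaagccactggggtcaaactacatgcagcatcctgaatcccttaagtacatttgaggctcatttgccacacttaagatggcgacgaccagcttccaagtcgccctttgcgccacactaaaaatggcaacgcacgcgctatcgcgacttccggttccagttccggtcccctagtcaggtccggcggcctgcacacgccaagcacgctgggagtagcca
Sars: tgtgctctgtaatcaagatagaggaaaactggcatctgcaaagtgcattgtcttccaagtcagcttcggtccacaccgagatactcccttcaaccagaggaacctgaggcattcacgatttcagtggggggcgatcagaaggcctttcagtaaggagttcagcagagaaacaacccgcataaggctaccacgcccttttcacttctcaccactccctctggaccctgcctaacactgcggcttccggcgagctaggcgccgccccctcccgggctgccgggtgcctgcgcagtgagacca
Tars2: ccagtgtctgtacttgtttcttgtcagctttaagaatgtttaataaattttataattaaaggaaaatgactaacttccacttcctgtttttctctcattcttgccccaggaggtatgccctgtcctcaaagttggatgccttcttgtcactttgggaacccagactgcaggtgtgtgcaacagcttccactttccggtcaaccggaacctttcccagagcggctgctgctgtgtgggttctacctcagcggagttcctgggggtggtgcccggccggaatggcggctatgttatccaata
Gars: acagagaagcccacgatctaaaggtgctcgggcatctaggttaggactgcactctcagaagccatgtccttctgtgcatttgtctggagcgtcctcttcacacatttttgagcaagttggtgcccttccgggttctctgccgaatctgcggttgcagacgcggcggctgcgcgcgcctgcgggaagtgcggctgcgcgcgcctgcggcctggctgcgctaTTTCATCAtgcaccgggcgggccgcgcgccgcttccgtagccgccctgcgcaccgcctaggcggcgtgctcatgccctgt
Aars: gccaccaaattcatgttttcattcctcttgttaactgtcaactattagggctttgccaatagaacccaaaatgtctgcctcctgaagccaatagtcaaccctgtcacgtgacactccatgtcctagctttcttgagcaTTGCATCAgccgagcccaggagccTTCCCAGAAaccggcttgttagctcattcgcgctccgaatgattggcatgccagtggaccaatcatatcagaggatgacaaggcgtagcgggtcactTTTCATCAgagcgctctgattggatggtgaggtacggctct

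Between KO-labelled and WT-labelled cells, 3 synthetase transcripts stood higher by test: Farsa, for the α subunit of the cytosolic phenylalanyl enzyme, Tars2, for the mitochondrial threonyl enzyme, and Sars, for the cytosolic seryl enzyme. Untreated, 2 of the 36 passed the test (Farsa and Tars2, both higher), which is 5.56% of the synthetases beside 6.23% of the 12313 genes tested, of which 3% were higher and 3.23% lower. With IFN-β, 3 of the 36 passed (Farsa, Tars2 and Sars, all higher), or 8.33% beside 6.55% of all tested genes, of which 2.92% were higher and 3.64% lower. No synthetase was called lower in either comparison. These shares lie near those of all genes. The same tests with the replicate number as a block called 8 of 36 untreated (22.2%, beside 26.6% of all genes), 4 higher and 4 lower (beside 13.5% and 13.1%). With IFN-β and the block they called 6 of 36 (16.7%, beside 26%), 4 higher and 2 lower (beside 12.7% and 13.3%). In these bulk samples, fewer cells of a type and less RNA per cell cannot be told apart.

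Farsa had 7119 and 5110.4 normalised reads in the KO-labelled untreated libraries, against 3098, 2709 and 2319 in the WT-labelled untreated libraries. With IFN-β it had 7097 and 5626 in KO-labelled libraries, against 3056, 2460.4 and 2386 in WT-labelled libraries. All 4 KO-labelled libraries lay above all 6 WT-labelled libraries. The log2 fold change was 1.16 ± 0.21 SE untreated (adjusted p = 0.011) and 1.27 ± 0.21 with IFN-β (adjusted p = 0.0076). With the block the adjusted p-values were 0.00021 and 0.00012. Without the block, the untreated call was lost without the KO-labelled untreated library numbered 1 (adjusted p = 0.073), and the IFN-β call without the KO-labelled IFN-β library numbered 1 (0.067).

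Farsb encodes the β subunit with which the Farsa product forms the phenylalanyl enzyme, and was picked out after its values were seen. It had 2246 and 1998 normalised reads in KO-labelled untreated libraries, against 2603, 2394 and 1927 in WT-labelled untreated libraries. With IFN-β it had 2461 and 1999 in KO-labelled libraries, against 2458, 2313 and 2058 in WT-labelled libraries. The groups overlap, and the log2 fold changes of −0.11 ± 0.17 untreated and −0.03 ± 0.17 with IFN-β did not pass the test (adjusted p = 0.78 and 0.94). Per kb of exon, the ratio of Farsa to Farsb was 1.83 and 1.48 in KO-labelled untreated cells, against 0.687, 0.654 and 0.695 in WT-labelled untreated cells. With IFN-β the ratio was 1.67 and 1.63 in KO-labelled cells, against 0.718, 0.614 and 0.669 in WT-labelled cells. The ratio is a description of transcripts and carries no test. Fars2, for the mitochondrial phenylalanyl enzyme, had log2 fold changes of 0.13 ± 0.27 and 0.19 ± 0.27 and did not pass.

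Sars had 10181 and 9836 normalised reads in KO-labelled untreated libraries, against 6317, 7007 and 4318 in WT-labelled untreated libraries. With IFN-β it had 10891 and 10123 in KO-labelled libraries, against 6604, 5699.6 and 4865 in WT-labelled libraries. The genotypes do not overlap under either treatment. The log2 fold change was 0.89 ± 0.22 with IFN-β (adjusted p = 0.044) and 0.80 ± 0.22 untreated (adjusted p = 0.064). With the block both passed, at adjusted p = 0.0033 and 0.0058, and the untreated value was 0.051 without the KO-labelled untreated number 2. The IFN-β call without the block held without the WT-labelled untreated library numbered 2 or 3 and was lost when any of the other 8 libraries was left out (adjusted p up to 0.184, without the KO-labelled IFN-β library numbered 1). Sars2, for the mitochondrial seryl enzyme, had negative values under the same contrasts (log2 −0.34 ± 0.26 untreated and −0.38 ± 0.26 with IFN-β) and did not pass.

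Tars2 had 1835 and 1690.3 normalised reads in KO-labelled untreated libraries, against 1043, 1300.4 and 984 in WT-labelled untreated libraries. With IFN-β it had 1952 and 1809.8 in KO-labelled libraries, against 1042, 1054 and 1023 in WT-labelled libraries. Again no KO-labelled library fell within the WT range. The log2 fold change was 0.68 ± 0.15 untreated (adjusted p = 0.031) and 0.85 ± 0.15 with IFN-β (adjusted p = 0.011). Untreated, Tars2 kept its call only without the WT-labelled untreated number 2 or either KO-labelled IFN-β library, and lost it with any of the other 7 left out (adjusted p up to 0.138, without the KO-labelled untreated number 1). The IFN-β call was lost without the KO-labelled IFN-β number 1 (0.087) or number 2 (0.067). With the block Tars2 passed under both treatments (adjusted p = 0.0091 and 0.0031), and with the KO-labelled untreated number 1 left out the blocked untreated value was 0.077. Tars, for the cytosolic threonyl enzyme, had log2 fold changes of 0.03 ± 0.32 and 0.04 ± 0.32.

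Gars passed only with the block. It had 14499.8 and 13233 normalised reads in KO-labelled untreated libraries, against 10055, 9804 and 6051 in WT-labelled untreated libraries. With IFN-β it had 16363 and 14473 in KO-labelled libraries, against 11167, 9594 and 7809 in WT-labelled libraries. The groups do not overlap, but the WT-labelled libraries spread widely. The log2 fold changes of 0.72 ± 0.24 untreated and 0.71 ± 0.24 with IFN-β had adjusted p = 0.127 and 0.131 without the block and 0.0086 and 0.0094 with it. The blocked untreated call was lost without the KO-labelled untreated number 2 (0.070), and the blocked IFN-β call without the KO-labelled IFN-β number 1 (0.085) or number 2 (0.072).

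**Figure D1:**
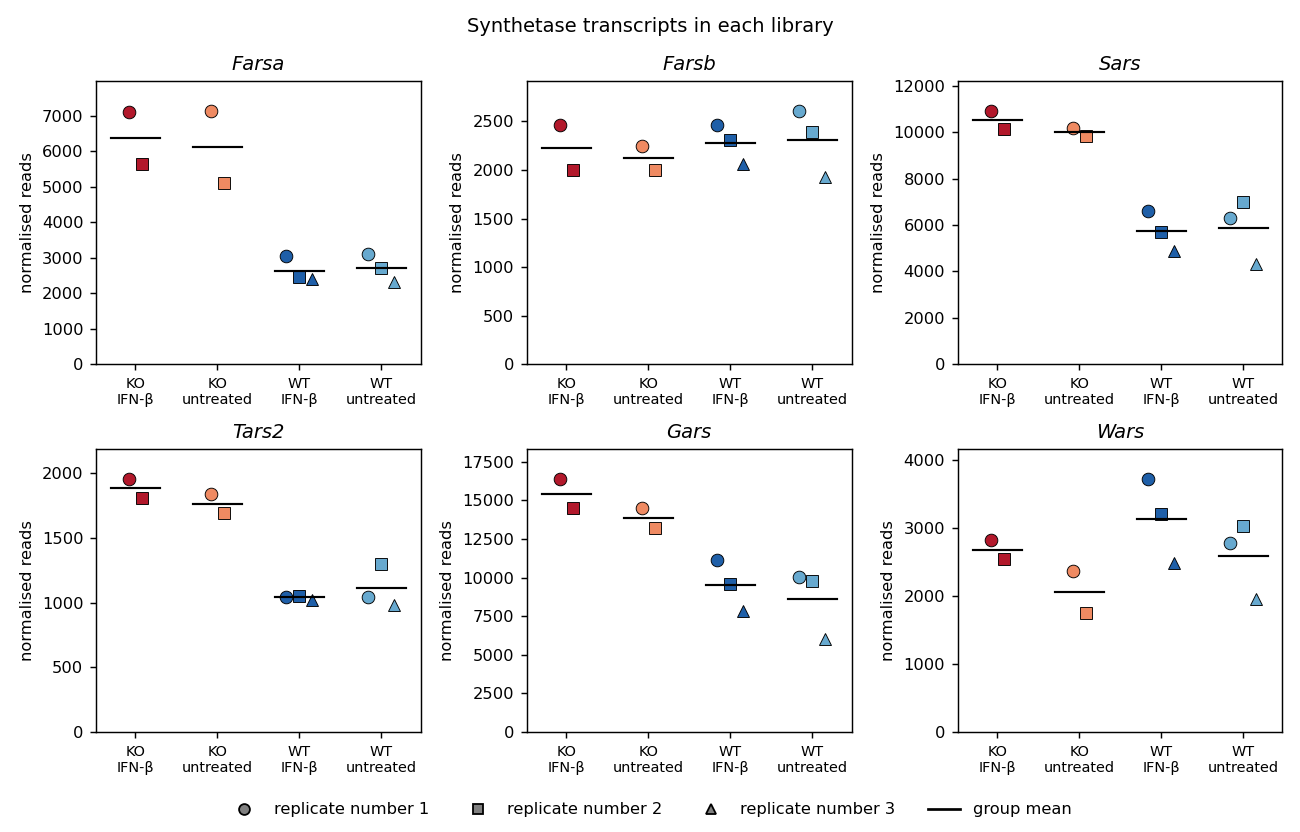
Normalised reads of 6 synthetase genes in each of the 10 libraries, by group, with the replicate number as the symbol and the group mean as a line. For Farsa, Sars, Tars2 and Gars every KO-labelled library lies above every WT-labelled library of the same treatment, and for Farsb and Wars the groups overlap.

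Lower values in KO-labelled cells were smaller, and none passed without the block. Kars, for the lysyl enzyme, had 5927 and 5339 normalised reads in KO-labelled untreated libraries, against 7879, 8477 and 6521 in WT-labelled untreated libraries (log2 −0.43 ± 0.14, adjusted p = 0.124, and 0.012 with the block). Iars2, for the mitochondrial isoleucyl enzyme, had 1376 and 1548 in KO-labelled untreated libraries, against 1816, 2184 and 2191 in WT-labelled untreated libraries (log2 −0.49 ± 0.16, adjusted p = 0.113, and 0.015 with the block). With IFN-β, Iars2 had 1433 and 1494 in KO-labelled libraries, against 1739, 2234 and 2211 in WT-labelled libraries (log2 −0.49 ± 0.16, adjusted p = 0.119, and 0.016 with the block). In none of these 3 comparisons did the groups overlap. Aars, for the alanyl enzyme, and Wars passed untreated with the block only (log2 with the block −0.39 and −0.50, adjusted p = 0.040 and 0.023). The 4 blocked untreated calls, for Kars, Iars2, Aars and Wars, were each lost without the KO-labelled untreated number 2 (adjusted p = 0.129, 0.125, 0.211 and 0.228). Iars2 was also lost untreated without the KO-labelled untreated number 1 (0.066), and with IFN-β without the KO-labelled IFN-β number 2 (0.189) or the WT-labelled IFN-β number 2 (0.061). The blocked Aars call was also lost without the WT-labelled untreated number 1 or 2, the WT-labelled IFN-β number 1, the KO-labelled untreated number 1 or either KO-labelled IFN-β library (0.066 to 0.124).

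The remaining low value was Mars2, which had the lowest mean of the 36 per kb of exon in WT-labelled untreated cells. It had 397 and 148 normalised reads in KO-labelled libraries with IFN-β, against 523, 288 and 361 in WT-labelled libraries with IFN-β. The groups overlap, and the libraries numbered 1 are the high ones in both genotypes. The log2 fold change of −0.64 ± 0.57 had adjusted p = 0.593, and 0.023 with the block (log2 −0.66). The blocked call was lost without the KO-labelled IFN-β number 1 (0.075) or 2 (0.182), the WT-labelled IFN-β number 2 (0.084) or 3 (0.051), or the WT-labelled untreated number 3 (0.052). Without the block, leaving out the KO-labelled IFN-β number 2 turned the value to 0.07.

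Across the 36 genes, the KO-labelled untreated libraries lay wholly above the WT-labelled ones for 7 of 36 genes (Farsa, Gars, Iars, Mars, Sars, Tars2 and Wars2), or 19.4% beside 15.7% of all tested genes. They lay wholly below for 4 (Ears2, Iars2, Kars and Pars2), or 11.1% beside 15.9%. With IFN-β the KO-labelled libraries lay wholly above for 10 of 36, or 27.8% beside 20% of all tested genes, and wholly below for 5, or 13.9% beside 20.4%. The median log2 fold change of the 20 mainly cytosolic genes was −0.07 untreated and −0.02 with IFN-β, and that of the 16 mitochondrial genes was −0.22 and −0.12, beside 0.00 for all tested genes in both comparisons. The genes did not move together: 12 of 36 values were positive untreated and 15 of 36 with IFN-β. Of all 12313 tested genes, 6201 and 6152 were positive.

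**Figure D2:**
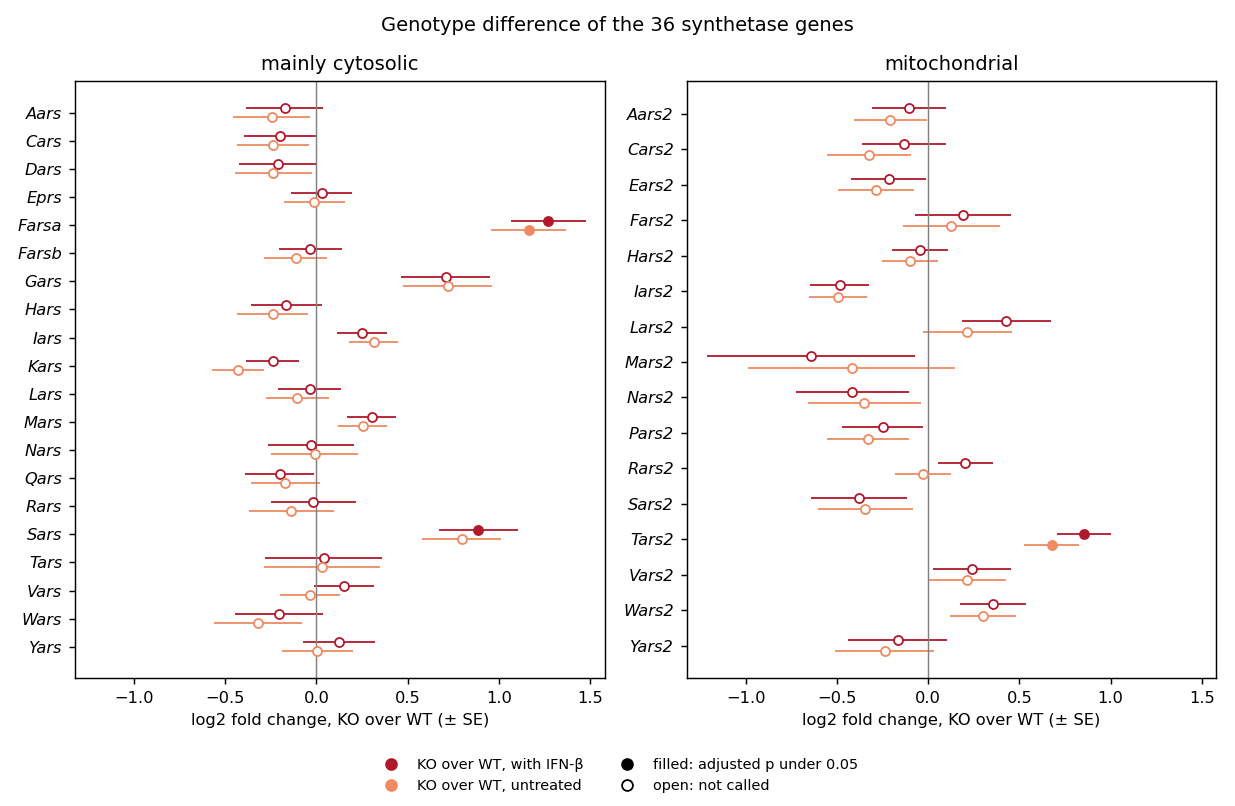
Log2 fold change of KO-labelled over WT-labelled cells for each of the 36 synthetase genes, with IFN-β (dark red) and untreated (orange), as points with bars of 1 SE from the limma fit without the block. Filled points passed at adjusted p under 0.05: Farsa and Tars2 under both treatments, and Sars with IFN-β.

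The genes near each synthetase on its chromosome were examined after the values were seen, over all tested genes with any part within 1 Mb of the synthetase gene. Farsa lies at chr8:84856989-84869257 on the plus strand of GRCm38 (GENCODE M21). Of its 45 tested neighbours, 31 were called higher in KO-labelled untreated cells and 0 lower, and 44 had a positive value, with a median log2 fold change of 1.37. With IFN-β the counts were the same, 31, 0 and 44, and the median was 1.36. The nearest tested genes on either side were Calr, for the endoplasmic reticulum chaperone calreticulin (log2 0.69 ± 0.28 untreated, adjusted p = 0.193, and 0.0026 with the block), and Gcdh, for glutaryl-CoA dehydrogenase (log2 1.40, adjusted p = 0.0024). The Farsa value of 1.16 untreated is thus below the median of its neighbours.

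Tars2 lies at chr3:95739976-95760206 and Sars at chr3:108424865-108445209, both on the minus strand. Untreated, 49 of 51 tested neighbours of Tars2 had a positive value (6 called higher, 0 lower, median log2 0.54), and with IFN-β 49 of 51 again (6 higher, 0 lower, median 0.53). For Sars, 26 of 29 neighbours were positive untreated (3 called higher, 1 lower, median 0.68) and 25 of 29 with IFN-β (3 higher, 1 lower, median 0.54). The neighbour called lower was Sort1, for the sorting receptor sortilin (log2 −2.73 untreated, adjusted p = 0.014). Over the 582 tested genes of chromosome 3, the median log2 fold change was 0.44 untreated and 0.43 with IFN-β, the highest of the 20 chromosomes in both, and 84.2% of the values were positive untreated. The third synthetase of that chromosome, Wars2, had a log2 fold change of 0.30 ± 0.18 untreated and 0.36 ± 0.18 with IFN-β and did not pass.

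Gars stood further above its neighbours than Farsa, Sars or Tars2 did above theirs. It lies at chr6:55038007-55079500 on the plus strand, and its 8 tested neighbours had a median log2 fold change of 0.21 untreated (6 positive, 1 called higher) and 0.19 with IFN-β (5 positive, 1 called higher), beside its own 0.72 and 0.71. Chromosome 6 had the second highest median of the 20 chromosomes in both comparisons, 0.26 untreated and 0.27 with IFN-β over 531 tested genes. Lars2 stood above its neighbours too, with log2 fold changes of 0.21 untreated and 0.43 with IFN-β beside neighbour medians of −0.16 and −0.19, though it did not pass the test. Rars, with 3 tested neighbours, had −0.14 and −0.02 beside medians of −0.68 and −0.94, a wider gap than that of Gars. Such gaps were thus not particular to Gars and Lars2. Other genes stood below their neighbours, such as Iars2 (−0.49 beside −0.11 untreated). Over the 36 genes, the synthetase's own value and the median of its neighbours had the same sign in 32 untreated and 31 with IFN-β. The correlation was r = 0.84 (Spearman's rho 0.75) untreated and r = 0.79 (rho 0.71) with IFN-β, and r was 0.77 and 0.69 without Farsa. It is a description across genes that share the same 10 libraries, and carries no test. Some windows overlap (Hars with Hars2, Eprs with Iars2, Vars with Vars2, and Aars with Kars). In these pairs each synthetase is also counted among the neighbours of the other. Whether the neighbourhood has a part in the synthetase values was not tested.

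**Figure D3:**
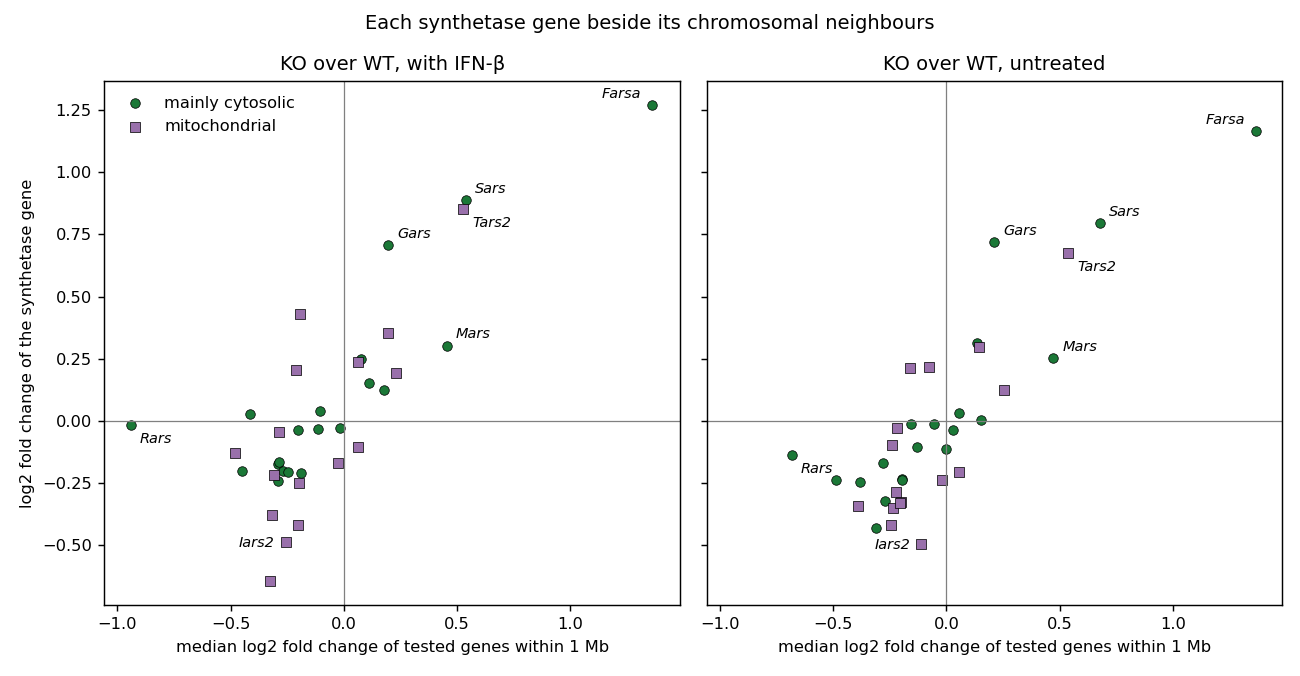
Log2 fold change of each synthetase gene (vertical) against the median log2 fold change of the tested genes within 1 Mb of it (horizontal), KO-labelled over WT-labelled, with IFN-β on the left and untreated on the right. Farsa lies at the top right of both panels, with a neighbour median of 1.36 with IFN-β and 1.37 untreated, and most of the other genes lie near 0 on both axes.

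No synthetase transcript was called changed by IFN-β in either genotype, while interferon-stimulated genes rose in both. Isg15, an interferon-induced ubiquitin-like modifier, had 7386 and 8141 normalised reads in KO-labelled cells with IFN-β, against 45.1 and 184 in KO-labelled untreated cells. In WT-labelled cells it had 6362, 5411 and 6073 with IFN-β, against 183, 219.8 and 130.1 untreated. Of the 36 synthetases, 0 passed the limma test in KO-labelled cells (beside 1.84% of all tested genes) and 0 in WT-labelled cells (beside 2.21%), also at an unadjusted p under 0.05, where 4.86% and 6.07% of all genes fell. With the replicate block the counts were again 0 and 0 (beside 3.48% and 4.95%), and edgeR and DESeq2 on the recovered reads called 0 in both.

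Wars had the largest positive value of the 36 under both contrasts. It had 2823 and 2548 normalised reads in KO-labelled cells with IFN-β, against 2368 and 1749.6 in KO-labelled untreated cells (log2 0.40 ± 0.26, adjusted p = 1, and 0.24 with the block). In WT-labelled cells it had 3719, 3207 and 2485 with IFN-β, against 2787, 3025 and 1954 untreated (log2 0.28 ± 0.22, adjusted p = 1, and 0.25 with the block). Both KO-labelled libraries with IFN-β lay above both untreated ones, and the WT-labelled groups overlap. Paired by replicate number, Wars was higher with IFN-β in 5 of 5 pairs, by 0.25 and 0.54 on the log2 scale in KO-labelled cells and by 0.42, 0.08 and 0.35 in WT-labelled cells. Ido1, for a tryptophan-degrading enzyme that interferon-γ raises together with Wars in many cells, had 0 reads in all 10 libraries, where 3 reads equal 2.73 to 3.29 normalised reads.

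None of the other values at the ends of the range passed (adjusted p = 1 for each). Nars had 12477 and 10623 normalised reads in KO-labelled cells with IFN-β, against 10868 and 8967 in KO-labelled untreated cells (log2 0.22 ± 0.26). In WT-labelled cells it had 13879, 11819 and 9865 with IFN-β, against 12743, 10171 and 7584 untreated (log2 0.24 ± 0.21). The groups overlap in both genotypes, while pair by pair Nars was higher with IFN-β in 5 of 5. Pars2, for the mitochondrial prolyl enzyme, had 158 and 154 in KO-labelled cells with IFN-β, against 186 and 171 in KO-labelled untreated cells (log2 −0.19 ± 0.25). In WT-labelled cells it had 185, 209 and 166 with IFN-β, against 224, 272 and 186 untreated (log2 −0.27 ± 0.20). Pars2 was lower with IFN-β in 5 of 5 pairs. Aars had 9455 and 9902 in KO-labelled cells with IFN-β, against 7965 and 8279.9 in KO-labelled untreated cells (log2 0.25 ± 0.23). Lars2 had 8381, 7758 and 7415 in WT-labelled cells with IFN-β, against 8514, 12166 and 8059 in WT-labelled untreated cells (log2 −0.26 ± 0.22). The WT-labelled untreated library numbered 2 was the high one of its group, and without it the Lars2 value was −0.08. Mars2 had a log2 fold change of −0.13 ± 0.62 in KO-labelled cells, which turned to 0.62 without the KO-labelled untreated number 1 and to 0.58 without the KO-labelled IFN-β number 2.

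Positive values were commoner among the mainly cytosolic genes than among the mitochondrial ones. In KO-labelled cells 19 of 20 mainly cytosolic genes had a positive value (all but Qars), with a median log2 fold change of 0.16, and in WT-labelled cells 13 of 20 did, with a median of 0.09. The mitochondrial genes were positive in 8 of 16 in KO-labelled cells (median −0.004) and in 6 of 16 in WT-labelled cells (median −0.08), beside a median of −0.03 for all tested genes in each. Of all 12313 tested genes, 5341 were positive in KO-labelled and 5539 in WT-labelled cells. All genes share the same 10 libraries, so these sign counts carry no test. Higher with IFN-β in all 5 same-number pairs were 7 of 36 synthetases (Dars, Eprs, Iars, Nars, Rars, Tars and Wars, all mainly cytosolic), or 19.4% beside 14.4% of all tested genes. Lower in all 5 pairs was Pars2 alone, or 2.78% beside 16.9%. None of these values passed the test.

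**Figure D4:**
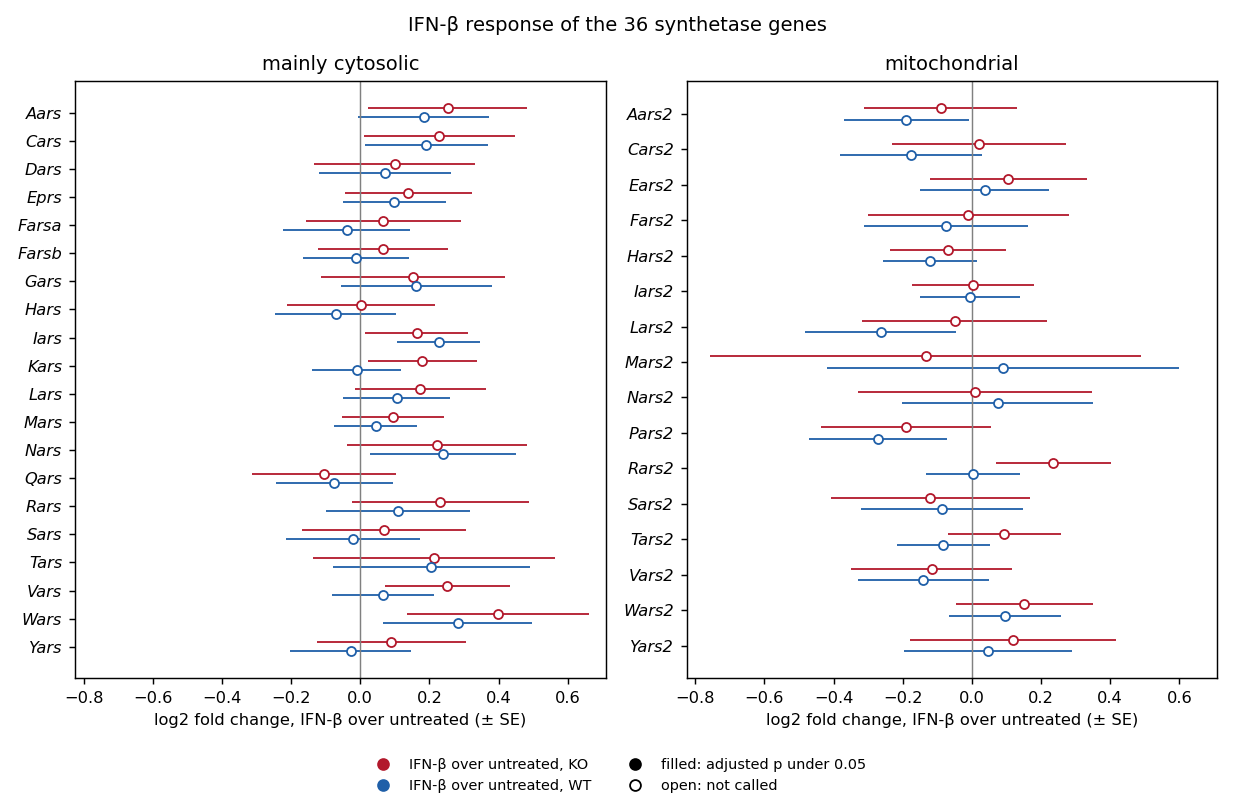
Log2 fold change of IFN-β over untreated for each of the 36 synthetase genes in KO-labelled (red) and WT-labelled (blue) cells, as points with bars of 1 SE from the limma fit without the block. All points are open, since none passed at adjusted p under 0.05, and Wars has the highest value in both, 0.40 in KO-labelled and 0.28 in WT-labelled cells.

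The IFN-β response was not detectably different between the genotypes for any synthetase. The interaction, which is the IFN-β change in KO-labelled cells minus that in WT-labelled cells, passed for 0 of 36 in limma, beside 0% of all tested genes, and for 0 of 36 in edgeR and DESeq2. At an unadjusted p under 0.05 it held 0 synthetases and 0.292% of all genes. The values ran from −0.22 (Mars2) to 0.23 (Rars2, for the mitochondrial arginyl enzyme), with a median of 0.07 over the 36 and 0.00 over all tested genes. Slfn2, at −3.35 ± 0.50, did not pass this test either (adjusted p = 1).

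Much of the spread within groups followed the replicate number in the labels, which do not say what a number marks. Libraries numbered 1 were compared with those numbered 2 across the 4 groups. Of the 36 synthetases, 16 passed (9 higher in number 1 and 7 lower), or 44.4% beside 48.6% of all tested genes (23.3% higher and 25.3% lower). Mars2 had the largest difference: in the number 1 libraries it had 397 normalised reads in KO-labelled cells with IFN-β, 449 in KO-labelled untreated, 523 in WT-labelled with IFN-β and 545 in WT-labelled untreated. In the number 2 libraries it had 148, 157, 288 and 230.5 in the same groups. The log2 difference, number 1 minus number 2, was 1.26 ± 0.12 (adjusted p = 0.00023), larger than any genotype or IFN-β value of this gene.

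Nars2, for the mitochondrial asparaginyl enzyme, had 281, 281, 314 and 316 normalised reads in the number 1 libraries of those groups, against 166, 164, 261 and 224 in the number 2 libraries (log2 0.57 ± 0.12, adjusted p = 0.0050). In the other direction, Sars2 had 199, 221, 281 and 270.1 in number 1, against 282, 299.6, 332 and 426 in number 2 (log2 −0.46 ± 0.11, adjusted p = 0.0088). Fars2 had 195, 208, 181 and 176 in number 1, against 277, 265, 207 and 277 in number 2 (log2 −0.42 ± 0.12, adjusted p = 0.022). These 4 genes went the same way in all 4 groups. Fitted within WT-labelled libraries alone, Nars2, Sars2 and Fars2 did not pass (adjusted p = 0.094, 0.077 and 0.129), and Fars2 was also lost without the WT-labelled untreated number 1 or any KO-labelled library (0.056 to 0.082).

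Number 1 was higher in all 4 groups for 11 of 36 genes, or 30.6% beside 27.9% of all tested genes, and lower in all 4 for 8, or 22.2% beside 30.1%. Among the mainly cytosolic genes called, Dars, Farsa, Hars, Nars, Rars and Tars were higher in number 1 and Lars and Qars lower. Among the mitochondrial genes called, Mars2, Nars2 and Yars2 were higher and Fars2, Iars2, Lars2, Sars2 and Vars2 lower. The scaffold genes Eef1e1 (log2 1.22 ± 0.09, adjusted p = 8.17e-05) and Aimp2 (0.60 ± 0.11, adjusted p = 0.0036) were also higher in number 1. The count of 16 became 9 without the WT-labelled untreated number 1 or any of the 4 KO-labelled libraries, 5 within WT-labelled libraries alone and 19 within KO-labelled libraries alone.

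**Figure D5:**
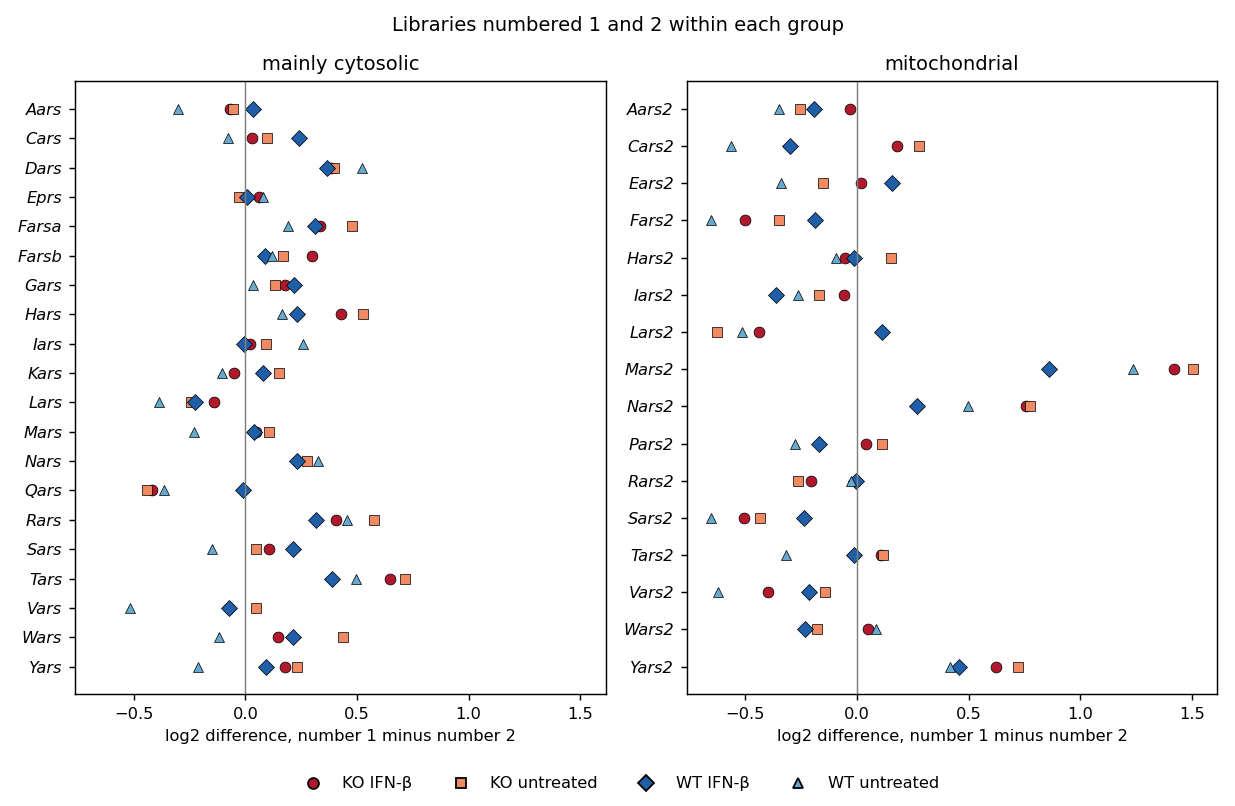
Log2 difference between the library numbered 1 and the library numbered 2 of the same group, for each of the 36 synthetase genes, with a symbol for each of the 4 groups. For Mars2 the 4 differences lie between 0.86 and 1.51, and for Sars2 between −0.66 and −0.24.

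The other genes of the pathway were set beside the synthetases. Of the 3 scaffold genes of the multisynthetase complex, 0 passed in the IFN-β, genotype and interaction comparisons. Of 12 genes for other steps around tRNA charging, 10 were tested and 0 passed in those 5 comparisons. Over all tested genes, 1.84% passed with IFN-β in KO-labelled cells, 2.21% in WT-labelled cells and 0% in the interaction. Between genotypes 6.23% passed untreated and 6.55% with IFN-β. With the block, Xpot, for the tRNA export receptor, was higher in KO-labelled cells untreated (log2 0.41, adjusted p = 0.026) and with IFN-β (0.35, adjusted p = 0.046), and Pstk, for a kinase that acts on the selenocysteine tRNA, was lower untreated (−0.43, adjusted p = 0.028). Leaving out a library, the blocked Xpot calls were lost in 4 of 10 fits untreated and 8 of 10 with IFN-β, and the Pstk call in 8 of 10.

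Of the 6 genes for eIF2α kinases and phosphatase subunits, Eif2ak2, for the double-stranded RNA sensor PKR and an interferon-stimulated gene, rose with IFN-β in both genotypes. It had 7274 and 7617 normalised reads in KO-labelled cells with IFN-β, against 481 and 891 untreated (log2 3.50 ± 0.26, adjusted p = 0.00011). In WT-labelled cells it had 5903, 6436 and 5659.9 with IFN-β, against 582, 565 and 689 untreated (log2 3.30 ± 0.21, adjusted p = 2.68e-05). Eif2ak4, for the uncharged-tRNA sensor GCN2, had 477 and 491 in KO-labelled cells with IFN-β, against 689, 719.8 and 739.5 in WT-labelled cells with IFN-β (log2 −0.56 ± 0.14, adjusted p = 0.049). That call was lost when any library but the WT-labelled untreated number 2 was left out (9 of 10, adjusted p up to 0.211), and with the block it stood at 0.012, and at 0.107 and 0.070 without the KO-labelled IFN-β number 1 or 2. Untreated, Eif2ak4 had 543 and 541 in KO-labelled cells, against 802, 679 and 776 in WT-labelled cells (log2 −0.47 ± 0.14, adjusted p = 0.091, and 0.025 with the block). That blocked call was lost without the WT-labelled untreated number 1 or 3, the WT-labelled IFN-β number 3 or either KO-labelled untreated library (0.065 to 0.131). Eif2ak3, for the endoplasmic reticulum stress sensor PERK, was higher in KO-labelled untreated cells, with 663 and 667, against 402, 329 and 409 in WT-labelled untreated cells (log2 0.81 ± 0.17, adjusted p = 0.025). The Eif2ak3 call was lost without the WT-labelled untreated number 3, the WT-labelled IFN-β number 2 or a KO-labelled untreated library (0.0525 to 0.14). Besides the untreated Eif2ak4 call, the block added calls between genotypes for 3 genes: Eif2ak3 higher with IFN-β (log2 0.61, adjusted p = 0.017), Eif2ak1, for the heme-regulated kinase, lower with IFN-β (−0.38, 0.025), and Ppp1r15a, for the phosphatase subunit GADD34, higher in both (0.59 untreated and 0.57 with IFN-β, 0.025 and 0.030). Ppp1r15a was also higher with IFN-β in WT-labelled cells with the block (log2 0.68, adjusted p = 0.021). Each of these blocked calls was lost in 2 to 6 of 10 fits that left out a library.

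Of 25 genes of the ATF4 branch, 1 passed between genotypes under both treatments (beside 6.23% of all tested genes untreated and 6.55% with IFN-β): Gpt2, for a mitochondrial alanine aminotransferase. Gpt2 is also one of the 31 neighbours of Farsa called higher, 646.9 kb away on chromosome 8. It had 6891 and 7557 normalised reads in KO-labelled untreated cells, against 3369.8, 3510.0 and 2166 in WT-labelled untreated cells (log2 1.29 ± 0.22, adjusted p = 0.0083). With IFN-β it had 8453 and 9303 in KO-labelled cells, against 4163, 3732 and 3279 in WT-labelled cells (log2 1.26 ± 0.22, adjusted p = 0.0095). The untreated call was lost without the KO-labelled untreated number 2 (0.066), and the IFN-β call without the KO-labelled IFN-β number 1 (0.052) or 2 (0.083). With the block 8 of the 25 were higher and 1 lower between genotypes under each treatment (beside 13.5% and 13.1% of all tested genes untreated and 12.7% and 13.3% with IFN-β), among them Gpt2 and Asns, for asparagine synthetase, higher and Psat1, of serine synthesis, lower in both. The list's median log2 fold change was 0.56 untreated and 0.35 with IFN-β (0.28 and 0.11 with the block), beside 0.00 for all tested genes.

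With IFN-β, 23 of the 25 ATF4-branch genes had positive values in KO-labelled cells (median log2 0.24) and 23 of 25 in WT-labelled cells (median 0.33). Of all 12313 tested genes, 5341 and 5539 were positive, with a median of −0.03 in each. Of the 25 genes, 0 passed without the block. With it, 1 passed in KO-labelled cells (Sesn2) and 6 in WT-labelled cells (Atf4, Trib3, Chac1, Sesn2, Mthfd2 and Cth), all higher, beside 3.48% and 4.95% of all tested genes called in either direction. Of 9 amino acid transporter genes, all 9 were positive in both genotypes (medians 0.27 in KO-labelled and 0.40 in WT-labelled cells) and 0 passed without the block. With the block 0 passed in KO-labelled cells and 3 in WT-labelled cells (Slc7a11, Slc7a1 and Slc1a4), beside the same 3.48% and 4.95%. Between genotypes 0 of the 9 passed without the block (beside 6.23% of all tested genes untreated and 6.55% with IFN-β). With the block 4 were higher and 1 lower untreated (beside 13.5% and 13.1%). With IFN-β and the block 2 were higher and 1 lower (beside 12.7% and 13.3%). The interaction held 0 genes of either list, beside 0% of all tested genes. It therefore cannot tell whether the genotypes differ in the IFN-β response of these lists. The 5 synthetases whose promoter windows hold the CARE-type letters had IFN-β log2 fold changes of 0.25 (Aars), 0.15 (Gars), 0.16 (Iars), 0.21 (Tars) and 0.09 (Yars) in KO-labelled cells. In WT-labelled cells they had 0.18, 0.16, 0.23, 0.21 and −0.03, and none passed. Between genotypes untreated the same 5 had −0.24, 0.72, 0.31, 0.03 and 0.01, the last of them −0.12 with the block.

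Markers that moved with genotype were counted over whole lists. The summed level of 10 fibroblast markers ran from 299562 to 469813 normalised reads in KO-labelled libraries and from 207041 to 310551 in WT-labelled libraries. Most of that sum was Col1a1, Col1a2 and Fn1. Marker by marker, 5 of the 10 had positive and 5 negative log2 fold changes between genotypes under each treatment (median −0.04 untreated and 0.01 with IFN-β). The 3 neural markers summed to 462 to 557 in KO-labelled libraries, against 613 to 1286 in WT-labelled libraries, nearly all of it Tubb3, with Sox10 at 0 in all 10. The macrophage and leukocyte list (4 markers present) summed to 53.9 to 95.2 in KO-labelled libraries, against 53.0 to 72.6 in WT-labelled libraries. The part of these markers in the synthetase values was not tested.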

How the data were processed

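RNA from 10 libraries in 4 groups was sequenced with a stranded total RNA kit, per the labels. Per the submitters' processing notes, the authors used cutadapt 1.13, STAR 2.5.2a, HTSeq, DESeq2 and mm10. Annotation, strandedness of counting and filters are not given in the sources used here. The deposited unit is a signal, the read count of a gene over a size factor set by the authors for each library. All values were whole multiples of 1 read (100% within 0.001 reads), which gave the reads back. No libraries were identical.

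Since the unit is no raw count, limma-trend (version 3.58.1 in R 4.3.3) was run on log2(normalised reads + 1), which understates changes of low genes. It held a mean for each of 4 groups and 12313 genes past filterByExpr (edgeR 4.0.16, minimum count 10), with two-sided Benjamini-Hochberg adjusted p under 0.05 over all of them. An adjusted p is from limma without the replicate block unless the block is named. Libraries of the same replicate number were found to be paired, with a limit of 0.1 on the correlation. In 13 same-number pairs, deviations from the group mean correlated at 0.48 to 0.871, and in 24 other pairs at −0.871 to 0.318. Some of those other pairs thus also lay above the limit. In a group of 2 libraries the deviations are equal and opposite, so many of these values repeat with the sign turned. The pairing comes from the data. The comparison of numbers held group and number terms.

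Alternatives were edgeR, DESeq2 1.42.0, TMM scaling, other pseudocounts and filters, only the groups compared, the block, each genotype alone and leaving out each library. The block with a library left out was added after seeing the data. Scripts were tested on simulated data. All 36 genes matched GENCODE M21, and promoter sequences are from RefSeq, GRCm38.p6. Exons of 13 members overlap a gene on the other strand, and those of Aars overlap Exosc6 on the same strand. Farsa, Sars, Tars2, Gars and Wars have no such overlap.

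The members and lists were chosen with earlier results of these data known. Values are given for members that passed, the 2 largest rises and falls of each comparison, and Wars. Block-only calls, Farsb and the neighbours were added after values were seen. A floor of 3 reads covers counting error only.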

Additional observations from a re-analysis of the deposited data

How the results depend on the processing

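The count of synthetases that passed between KO-labelled and WT-labelled untreated cells, 2 as reported, was 4 with DESeq2, 8 with the replicate block (7 in 4 of its leave-one-out fits) and 0 with only the groups compared. With IFN-β the count of 3 became 6 with the block. Over all tested genes the share called went from 6.23% to 26.6% untreated and from 6.55% to 26% with IFN-β when the block was added. The count of 16 between libraries numbered 1 and 2 became 5 within WT-labelled libraries only. For the fits other than the block, those that leave out a library included, the share of all genes is not given here. Whether these shifts are particular to the synthetases was not tested. With only the groups compared, Farsa untreated had an adjusted p of 0.055 and Tars2 0.197, and Sars with IFN-β had 0.054 with no low-count filter. Leaving out each library in turn gave 0 to 2 synthetases untreated without the block (2 to 10 with it), 0 to 3 with IFN-β (3 to 14 with the block), 9 to 19 for the replicate numbers, and 0 in every case for both IFN-β comparisons and the interaction. Mars2 changed sign when a library was left out: its IFN-β log2 value in KO-labelled cells ran from −0.89 to 0.619 over the libraries left out (0.577 without the KO-labelled IFN-β number 2, and 0.033 with the block and without the KO-labelled untreated number 1), and its KO-labelled over WT-labelled value with IFN-β ran from −1.35 to 0.067. Of the synthetase values chosen by the naming rule or called with the block, no other changed sign under the alternatives run. Other values near 0 were not all followed, and that of Yars between genotypes untreated was 0.01 without the block and −0.12 with it. The block changed no call of a synthetase in the IFN-β and interaction comparisons. TMM scaling moved the median of all genes by less than 0.1 on the log2 scale. The cause of each of these shifts was not tested. The KO-labelled groups hold 2 libraries each. Whether read depth or the number of libraries limits these comparisons was not tested.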
